A study of Mus musculus with 4 samples.

Results

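Of the 24421 genes in the tables, 98 were higher by a similar amount in both J558 allografts treated with TAK-931. The members were chosen on the measured values themselves. Counts were expressed as CPM (the count over the library's total, scaled to a common total), and a gene was kept when it had at least 3 CPM in both TAK-931 libraries, when the lower TAK-931 value was at least 2 times the higher Vehicle value, and when TAK-931-1 was between 0.5 and 1.5 times TAK-931-2. Genes whose names start with Ifit, Oas, Gbp, H2-, Ccl, Cxcl or Hist were left out. The differences between the groups and the likeness of the treated tumours are therefore a description of what was selected, and no test is read for a member. Raised means here that the condition of 2 times was met, without a test.

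J558 is a single mouse plasmacytoma line, grown here as subcutaneous allografts in the right flank of female BALB/c mice. Control mice received 0.5% methylcellulose by mouth, and treated mice received TAK-931, an inhibitor of the replication kinase CDC7, at 60 mg/kg once daily; tumours of both groups were taken on day 6. Each group held 2 tumours, each from its own mouse, sequenced as Vehicle-1, Vehicle-2, TAK-931-1 and TAK-931-2. These females (BALB/cAJcl) were 4 weeks old, and the tissue is the whole tumour, J558 cells together with host immune and stromal cells.

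The libraries held between 16487902 and 19589339 counts, so that 3 CPM stood for between 49.5 and 58.8 counts. The labels call the cells B lymphocytes. The plasma cell genes Sdc1 (234 to 690.2 CPM) and Jchain (3039 to 8445 CPM) were high in every library, whereas the B cell gene Pax5 had 0 CPM in all 4; Ms4a1, another B cell gene, was at 12.9 to 54.8 CPM. The treated tumours differed more from each other than the control tumours did: the biological coefficient of variation was 0.579 within the TAK-931 pair and 0.132 within the Vehicle pair. Over the whole table edgeR's quasi-likelihood test called 0 of 13669 genes (0%) at an adjusted p under 0.05, and 1579 genes (11.6%) were higher in TAK-931 at an unadjusted p under 0.05. DESeq2 called 1411 genes, of which 1259 were higher (9.78% of 12874). Of the 98 members, edgeR called 0, 77 were at an unadjusted p under 0.05 and DESeq2 called 59; since the members were chosen on this contrast, nothing is read from these counts.

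In a bulk tumour, RNA comes from the cancer cells and from every host cell around them. Interferons act through STAT and IRF proteins that bind interferon-stimulated response elements (ISRE) and gamma-activated sites (GAS) in promoters, and NF-κB drives genes such as Il1b and its own inhibitors. Infiltrating myeloid cells bring the phagocyte NADPH oxidase, and fibroblasts bring fibronectin and other matrix proteins. Fewer cells of a type and less RNA per cell cannot be told apart in such samples.

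Few of the raised genes were raised alike in the treated tumours. Of 10846 genes with at least 3 CPM in both TAK-931 libraries, 790 (7.28%) had a lower TAK-931 value at least 2 times the higher Vehicle value, and 100 (0.922%) also met the limits on the ratio between the treated tumours. Ifit1 and Cxcl10 were the 2 genes then left out by name. With no limit on the fold, 3332 genes (30.7%) had both treated tumours above both controls and 3749 (34.6%) had both below. Another 687 raised genes had a TAK-931-1 value over 1.5 times that of TAK-931-2, with a median of 3.52 times, and 3 had a ratio under 0.5. The treated tumours were alike within the same limits for 12.7% of the raised genes and for 67.1% of the 10056 genes that were not raised. The likeness that defines the members was thus common among all genes at this level and uncommon among those raised. With 1 treated tumour left out, and so without a limit on their ratio, 899 genes met the other conditions in TAK-931-2 alone and 3081 in TAK-931-1 alone.

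**Figure D1:**
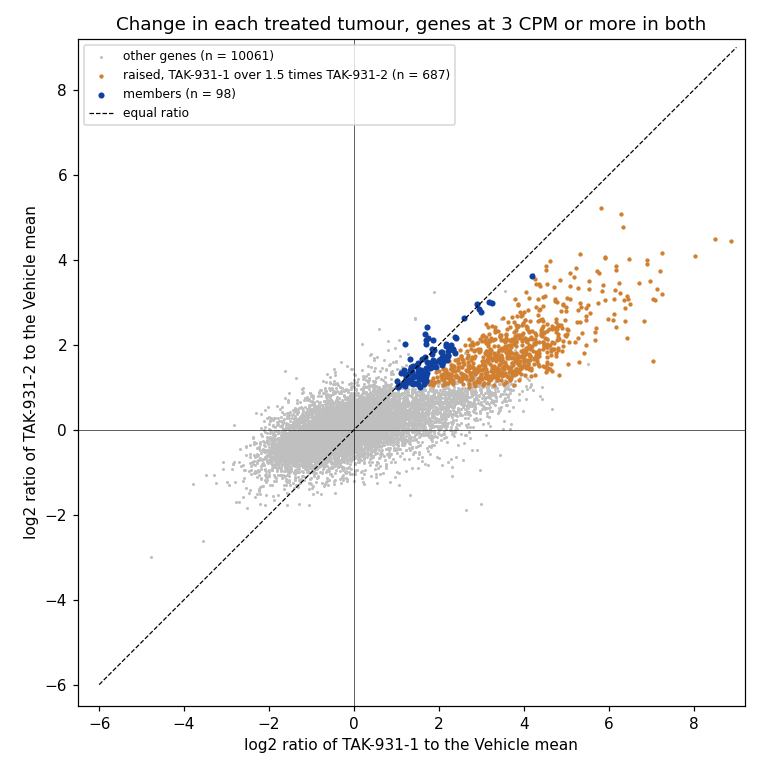
Each point is 1 of the 10846 genes with at least 3 CPM in both TAK-931 libraries, with the log2 ratio to the Vehicle mean, TAK-931-1 on the x axis and TAK-931-2 on the y axis (prior count of 2). The 98 members lie beside the dashed line of equal ratio by the way they were chosen, while the 687 genes raised unequally lie below it.

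Members had a median of 3.59 and 3.74 CPM in the control tumours Vehicle-1 and Vehicle-2, and of 13.3 and 10.9 CPM in the treated tumours TAK-931-1 and TAK-931-2. Many were low in the control tumours: 43 of the 98 had a Vehicle mean under 3 CPM and 22 had a mean over 30 CPM. Against the Vehicle mean, the members' median log2 ratio was 1.70 for TAK-931-1 and 1.54 for TAK-931-2, beside −0.05 and 0.05 over all 13669 genes tested. The fold of the group means ran from 2.04 to 8.72 with a median of 3.17. All 98 members passed the filter on low counts.

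TAK-931-1 was the higher of the treated tumours for 73 members and TAK-931-2 for 25. A 95% exact interval for the ratio, taken on halved counts because both mates of a read pair appear to have been counted, held 1 for 64 members. It lay above 1 for 29 members and below 1 for 5. Such intervals cover counting error only. The control tumours differed by less than 1.5-fold for 71 members, Vehicle-1 was over 1.5 times Vehicle-2 for 12, and the reverse held for 15.

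**Figure D2:**
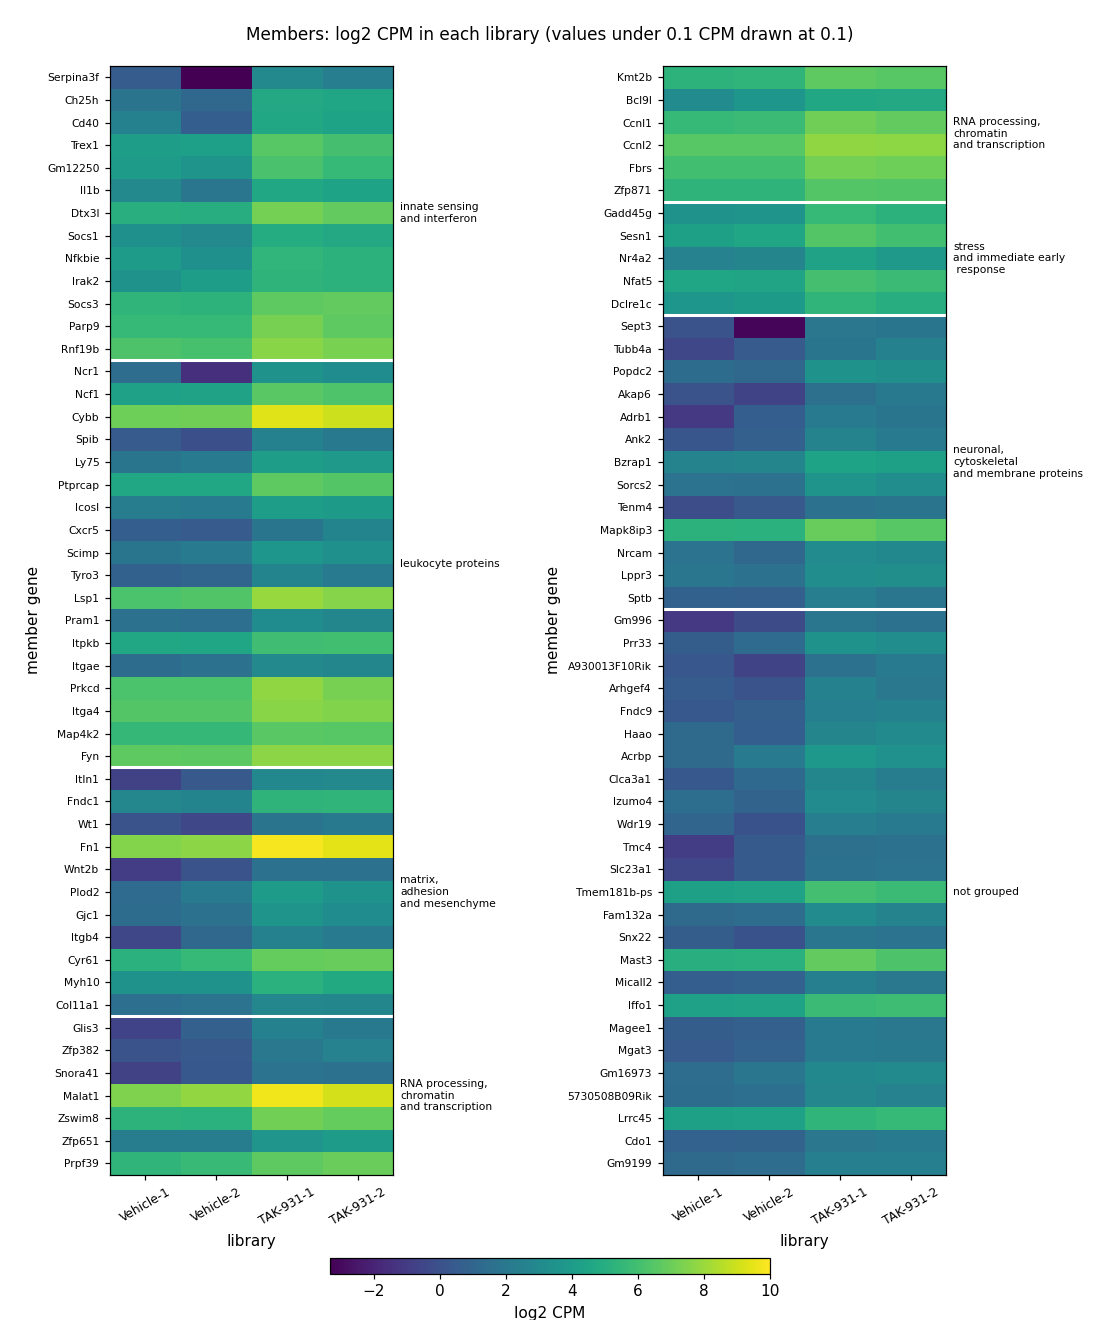
The log2 CPM of each of the 98 members (rows) in the 4 libraries (columns), grouped by known role and sorted within a group by the fold of the means. Both TAK-931 columns are brighter than both Vehicle columns in every row, as the choice of members requires, and the Vehicle columns differ visibly for Serpina3f, Sept3, Ncr1 and Cd40.

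The members were sorted by known role after they had been seen. Innate sensing and interferon genes made up 13 of the 98, with a median fold of the means of 3.99, the highest of the groups. The largest ratio of the lower TAK-931 to the higher Vehicle value, 6.50, belonged to Ch25h (chromosome 19, 34473784 to 34475135, mm10), which encodes the enzyme that makes the antiviral oxysterol 25-hydroxycholesterol. Ch25h had 3.53 and 2.15 CPM in Vehicle-1 and Vehicle-2 and 26.03 and 22.9 CPM in TAK-931-1 and TAK-931-2. Its means were 2.84 ± 0.972 and 24.5 ± 2.20 CPM (SD, n = 2), 8.62-fold apart (log2 fold change 3.09, SE 0.45), and the interval of the ratio between the treated tumours held 1, at 1.14 (95% interval 0.937 to 1.38).

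Cd40, the receptor through which helper T cells activate antigen-presenting cells, had 5.76 and 1.56 CPM in the Vehicle libraries and 24.7 and 21.3 CPM in the TAK-931 libraries. The control tumours were 3.70-fold apart for this gene and the treated ones 1.16-fold, so the fitted log2 fold change of 2.64 came to 3.88 with Vehicle-1 left out and to 1.96 with Vehicle-2 left out. Il1b, the inflammatory cytokine, had 7.58 and 3.77 CPM against 24.6 and 21.2 CPM, with Vehicle-1 again the higher control. Serpina3f, a serine protease inhibitor of a multigene family, had 1.47 and 0 CPM in Vehicle-1 and Vehicle-2, the latter a count of 0, which allows up to 0.179 CPM or, if both mates of a pair were counted, 0.359 CPM, and 7.66 and 5.16 CPM in the treated tumours. Its exons overlap those of Serpina3g, and its level is uncertain.

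The next genes had higher levels in the control tumours than Ch25h or Cd40, and the control tumours lay closer together. Trex1, the exonuclease that clears DNA from the cytosol, had 17.99 and 18.5 CPM in the Vehicle libraries and 92.5 and 68.4 CPM in the TAK-931 libraries (log2 fold change 2.14, SE 0.28). Dtx3l, a ubiquitin ligase, and Parp9, its partner, are neighbours on chromosome 16 (Dtx3l 35926515 to 35939027, Parp9 35938470 to 35972621) whose exons overlap, so that reads in the overlap are uncertain. Dtx3l had 33.9 and 31.1 CPM in the controls and 149.9 and 109 CPM in the treated tumours. For Parp9 these values were 48.4 and 49.5 CPM and 152 and 103 CPM. For both genes TAK-931-1 was the higher treated tumour, by 1.37-fold for Dtx3l and 1.48-fold for Parp9.

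Gm12250, an immunity-related GTPase of a family with close paralogs, had 15.9 and 12.02 CPM in the Vehicle libraries and 72.7 and 48.6 CPM in the TAK-931 libraries. At a ratio of 1.497 it was the member nearest the upper limit of 1.5. Feedback inhibitors of cytokine signalling were among the members. Socs1 had 10.5 and 7.66 CPM against 30.9 and 25.9 CPM. Socs3 had 42.3 and 38.6 CPM against 103 and 112 CPM and was the one member of this group that was higher in TAK-931-2. Nfkbie, an inhibitor of NF-κB, had 16.3 and 10.3 CPM against 44.1 and 38.3 CPM. Rnf19b, a ubiquitin ligase, had 77.5 and 70.5 CPM against 195 and 157 CPM, the smallest change of the group at 2.38-fold. The group also held Irak2, a kinase of the Toll-like and interleukin-1 receptor pathway, at 2.70-fold.

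RefSeq promoters of GRCm38.p6, 250 bases before to 50 after a start site, were found for 71 of the 98 members (72.4%). With fewer than 80% matched, a comparison of motif shares over the set is void, and single promoters are described instead. An ISRE was searched as the letters GAAANNGAAA on both strands, and 7 members held at least 1, Ncf1, Cybb, Gm12250, Tenm4, Socs1, Clca3a1 and Lrrc45, where 3.99% of all 27025 genes with a promoter did. Stretches around these matches are shown because they carry the motif that interferon-induced genes are known for. The match is in capitals, and on the opposite strand it reads as its reverse complement.
Ncf1, ISRE 82 to 73 bases before the start, chr5:134229673-134229732, minus strand: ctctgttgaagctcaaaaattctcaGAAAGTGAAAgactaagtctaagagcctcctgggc
Cybb, ISRE 168 to 159 bases before the start, chrX:9469458-9469517, minus strand: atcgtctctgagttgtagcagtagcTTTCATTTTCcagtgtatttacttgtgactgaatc
Cybb, ISRE 124 to 115 bases before the start, chrX:9469414-9469473, minus strand: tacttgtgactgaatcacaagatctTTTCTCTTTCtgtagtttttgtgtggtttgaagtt
Cybb, ISRE 29 to 20 bases before the start, chrX:9469325-9469378, minus strand: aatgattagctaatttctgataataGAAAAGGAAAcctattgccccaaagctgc
Gm12250, ISRE 91 to 82 bases before the start, chr11:58183727-58183786, plus strand: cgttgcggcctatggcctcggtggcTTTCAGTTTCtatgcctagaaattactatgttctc
Gm12250, ISRE 46 to 37 bases before the start, chr11:58183772-58183831, plus strand: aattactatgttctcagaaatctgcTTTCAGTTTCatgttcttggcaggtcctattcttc
Socs1, ISRE 83 to 74 bases before the start, chr16:10785585-10785644, minus strand: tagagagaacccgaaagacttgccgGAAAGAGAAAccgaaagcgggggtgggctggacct
Tenm4, ISRE 81 to 72 bases before the start, chr7:96171138-96171197, plus strand: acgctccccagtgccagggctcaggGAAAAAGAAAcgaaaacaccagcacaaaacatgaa
Clca3a1, ISRE 20 to 11 bases before the start, chr3:144760978-144761022, minus strand: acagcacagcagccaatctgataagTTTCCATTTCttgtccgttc
Lrrc45, ISRE 84 to 75 bases before the start, chr11:120713844-120713903, plus strand: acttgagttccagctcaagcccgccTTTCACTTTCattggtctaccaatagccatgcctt

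Cybb thus held 3 matches, the farthest beginning 168 bases before its start, and Gm12250 held 2 copies that share the same 10 letters. A second match in Socs1 overlaps the one shown. The Tenm4 stretch lies before a RefSeq start site upstream of the counted gene (chromosome 7, 96210637 to 96908554). A GAS, searched as TTCNNNGAA, was in the promoters of 6 members (9.55% of all promoters held it), among them Ncf1, where it overlaps the ISRE, Gm12250, Serpina3f and Socs3. An NF-κB motif was in 8 member promoters, that of Nfkbie among them (9.55% of all). The stretches of Socs3 and Nfkbie are given because each gene encodes a feedback inhibitor of the pathway whose motif it holds.
Socs3, GAS 154 to 146 bases before the start, chr11:117969487-117969545, minus strand: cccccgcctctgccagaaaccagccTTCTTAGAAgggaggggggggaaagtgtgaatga
Nfkbie, NF-kappaB 106 to 97 bases before the start, chr17:45555569-45555628, plus strand: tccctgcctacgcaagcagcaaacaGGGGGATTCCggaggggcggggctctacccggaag

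Dtx3l held the joint ETS and IRF motif, searched as GGAANNGAAA, and the PU.1 motif, searched as GAGGAAGT; Cybb also held the former, and these letters can overlap an ISRE. The joint motif was in 3.16% of all promoters and the PU.1 motif in 3.69%. No ISRE letters lay in the windows of Ch25h, Trex1 or Il1b. These matches are descriptions of the sequence, and binding was not measured.

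Leukocyte proteins were the largest role group, with 18 members and a median fold of the means of 2.86. Cybb (chromosome X, 9435254 to 9469324), the catalytic subunit of the phagocyte NADPH oxidase, had 136 and 137 CPM in the Vehicle libraries and 647 and 504 CPM in the TAK-931 libraries. Ncf1 (chromosome 5, 134220053 to 134229625), the organizing subunit of the same enzyme, had 19.4 and 20.4 CPM and 97.3 and 79.8 CPM in the same order. The group means of Cybb were 136 ± 0.658 and 576 ± 101 CPM (SD, n = 2; log2 fold change 2.08, SE 0.28), and those of Ncf1 were 19.9 ± 0.705 and 88.5 ± 12.4 CPM (log2 fold change 2.15, SE 0.25). The means were 4.23- and 4.45-fold apart, and the control tumours nearly coincided for both genes.

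The oxidase genes Cyba, Ncf4 and Rac2, looked at after the values were seen, were not members. Cyba, the membrane partner of Cybb, had 52.6 and 54.5 CPM in the Vehicle libraries and 542 and 131 CPM in the TAK-931 libraries, a 4.13-fold difference between the treated tumours. Ncf4 had 35.98 and 34.9 CPM against 101 and 56.9 CPM, and Rac2 had 333 and 319.6 CPM against 678 and 511 CPM. All 3 were above both control tumours in both treated tumours and, like Cybb and Ncf1, by more in TAK-931-1. Cyba met the 2-fold condition but exceeded the limit of 1.5 between the treated tumours. Rac2 stayed within that limit at 1.33, but its lower TAK-931 value was only 1.54 times its higher Vehicle value. Ncf4 missed both conditions. Subunits of 1 enzyme therefore fell on both sides of the rule.

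Among receptors and adhesion proteins, Ncr1, an activating receptor of NK cells, had 2.70 and 0.359 CPM in Vehicle-1 and Vehicle-2 and 10.9 and 9.04 CPM in TAK-931-1 and TAK-931-2. The NK and cytotoxic cell markers, 22 genes of which 2 were at 0 in every library, summed to 71.7 and 32.2 CPM in the controls and 1241 and 202 CPM in the treated tumours. Their part in the level of Ncr1, whose likeness in the treated tumours was a condition of the choice, was not tested. The controls of Ncr1 were 7.54-fold apart, and its fitted log2 fold change of 2.69 came to 4.77 with Vehicle-1 left out and to 1.84 with Vehicle-2 left out. Ly75, an endocytic receptor of dendritic cells, had 3.65 and 4.37 CPM against 16.8 and 14.4 CPM. Itgae, the integrin of tissue-resident lymphocytes and some dendritic cells, had 2.59 and 3.17 CPM against 7.71 and 6.91 CPM. Itga4, the α4 integrin, had 86.4 and 86.6 CPM against 199 and 177 CPM, a 2.18-fold change on a much higher level.

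Of the kinases, Fyn and Map4k2 had the smallest folds of the leukocyte group. Fyn, a Src-family kinase, had 104 and 100.02 CPM in the Vehicle libraries and 207 and 208 CPM in the TAK-931 libraries, a ratio between the treated tumours of 0.996 (95% interval 0.933 to 1.06). Map4k2, a kinase of the JNK pathway, had 46.4 and 46.4 CPM against 95.6 and 94.1 CPM. Prkcd, protein kinase C delta, had 75.8 and 75.5 CPM against 223 and 153 CPM, with TAK-931-1 above TAK-931-2 beyond counting error at 1.46 (95% interval 1.37 to 1.57). Lsp1, an actin-binding protein of leukocytes, had 76.2 and 84.6 CPM against 248 and 189.7 CPM. The remaining leukocyte members were Ptprcap, Icosl, Cxcr5, Spib, Scimp, Tyro3, Pram1 and Itpkb, between 2.57- and 4.20-fold. Cxcr5, a chemokine receptor of B cells, was the member highest in TAK-931-2 relative to TAK-931-1, at a ratio of 0.564 (95% interval 0.352 to 0.868).

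**Figure D3:**
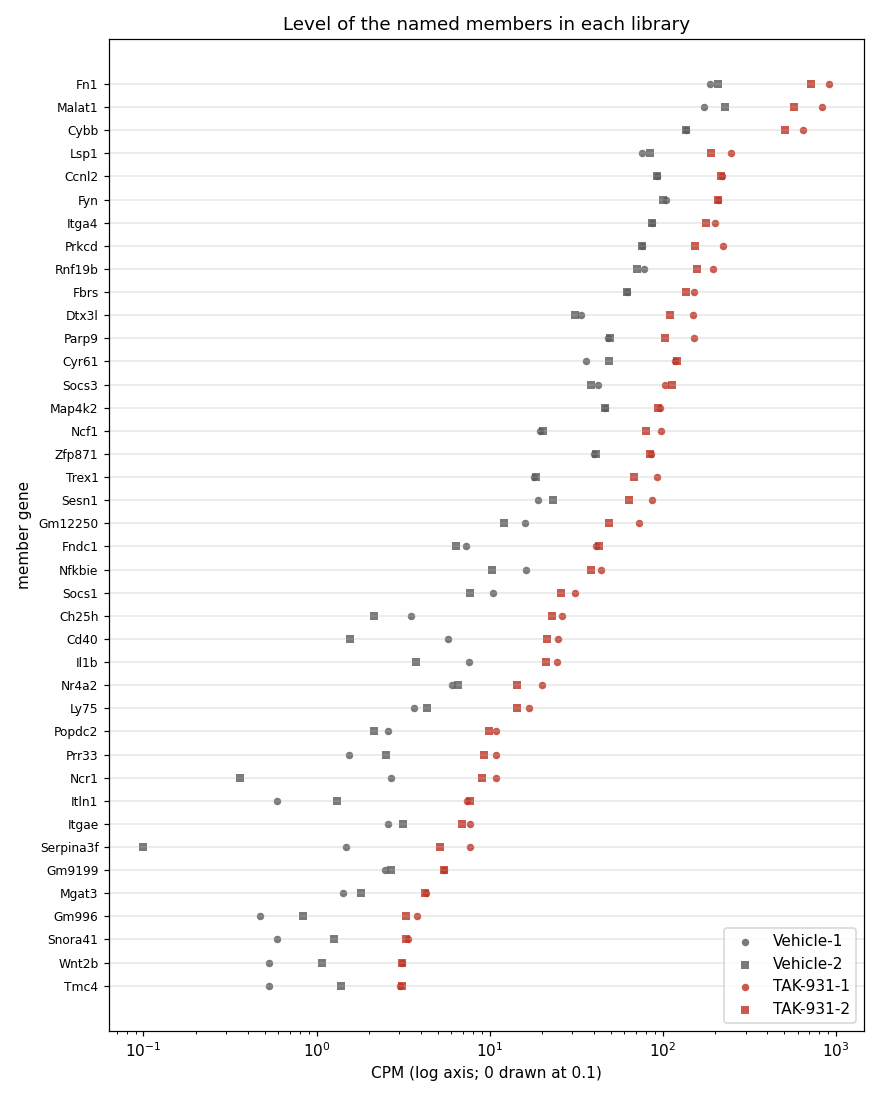
CPM on a log axis of the 40 members named by rule, 1 row each and sorted by the TAK-931 mean, with grey points for the 2 Vehicle libraries and red points for the 2 TAK-931 libraries. Red points lie close together by selection, while the grey points of Serpina3f (0 drawn at 0.1), Ncr1 and Cd40 lie far apart.

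Matrix, adhesion and mesenchymal genes gave 11 members with a median fold of the means of 3.75. Fn1 (chromosome 1, 71585473 to 71653234), fibronectin, had the highest CPM of all members in both TAK-931 libraries, with 188 and 207 CPM in the Vehicle libraries and 913 and 713 CPM in the TAK-931 libraries. Its means were 197 ± 13.5 and 813 ± 141 CPM (SD, n = 2; log2 fold change 2.04, SE 0.28). Fndc1, which carries fibronectin type III domains, had 7.29 and 6.34 CPM against 41.2 and 42.5 CPM and was 6.14-fold higher, with the treated tumours at a ratio of 0.970 (95% interval 0.840 to 1.12). Cyr61, a matricellular protein also named Ccn1, had 36.1 and 48.6 CPM against 117 and 120.4 CPM. Both Fndc1 and Cyr61 were slightly higher in TAK-931-2, unlike Fn1.

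Itln1, intelectin, a lectin of mesothelial and intestinal cells, had 0.588 and 1.32 CPM in the Vehicle libraries and 7.35 and 7.64 CPM in the TAK-931 libraries. Wnt2b, a Wnt ligand, had 0.529 and 1.08 CPM against 3.11 and 3.09 CPM. Wt1, a transcription factor of mesothelium and kidney, had 1.06 and 0.718 CPM against 3.47 and 4.12 CPM. These 3 were low everywhere, and the other mesothelial genes looked at after the values were seen were near 0: Msln had 0 counts in all libraries, Upk3b and Upk1b had 0 counts in both treated tumours, and Krt19, Krt8, Krt18 and Lrrn4 were at most 0.364 CPM. The other members of the group were Plod2, Gjc1, Itgb4, Myh10 and Col11a1, between 2.24- and 3.75-fold.

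Genes of RNA processing, chromatin and transcription were 13 in number and had the lowest median fold of the means, 2.45, and of the role groups their median ratio between the treated tumours was nearest 1, at 1.03. Malat1, a nuclear long non-coding RNA, had 173 and 228 CPM in the Vehicle libraries and 829 and 574 CPM in the TAK-931 libraries. Ccnl2, a cyclin L that localizes to splicing speckles, had 92.5 and 92.8 CPM against 218 and 217 CPM, a ratio between the treated tumours of 1.01 (95% interval 0.944 to 1.07). Zfp871, a zinc finger protein, had 39.9 and 40.9 CPM against 85.4 and 83.9 CPM. Ccnl2 and Zfp871, unlike Malat1, nearly coincided within each group.

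Fbrs, a component of a variant Polycomb complex, had 62.03 and 62.2 CPM against 151 and 135 CPM. Snora41, a small nucleolar RNA, had 0.588 and 1.26 CPM against 3.37 and 3.28 CPM; reads of so short a gene (113 bases) are few. The other members were Ccnl1, Prpf39, Kmt2b, Zswim8, Zfp651, Zfp382, Glis3 and Bcl9l, between 2.41- and 4.29-fold. Ccnl1, Prpf39 and Ccnl2 serve splicing.

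All 5 stress and immediate early genes had their highest level in TAK-931-1. Sesn1, a p53 target that restrains mTORC1, had 18.9 and 23.3 CPM in the Vehicle libraries and 86.1 and 63.7 CPM in the TAK-931 libraries, and its promoter held a p53 half-site, as did 9.55% of all promoters. Nr4a2, a nuclear receptor induced early after stimulation, had 6.06 and 6.58 CPM against 20.2 and 14.3 CPM. The means of Gadd45g, Nfat5 and the end-joining nuclease gene Dclre1c were 3.76-, 2.67- and 2.66-fold apart. Sesn1 was the one member among 27 measured p53 targets, of which 25 (92.6%) were not raised, beside 92.7% of all genes with 3 CPM in both TAK-931 libraries.

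Neuronal, cytoskeletal and membrane proteins gave 13 members. Mapk8ip3, a scaffold protein of the JNK pathway picked out here for its level, was the highest of them in the controls, with 37.2 and 35.9 CPM against 119.9 and 92.4 CPM. Popdc2, a membrane protein of heart and skeletal muscle, had 2.59 and 2.15 CPM in the Vehicle libraries and 10.9 and 9.89 CPM in the TAK-931 libraries. Skeletal muscle markers, summed, were at 7.25 times the Vehicle mean in TAK-931-1 and at 0.316 times in TAK-931-2, and their part in the level of Popdc2 was not tested. The others were Sept3, Tubb4a, Akap6, Adrb1, Ank2, Bzrap1, Sorcs2, Tenm4, Nrcam, Lppr3 and Sptb, between 2.58- and 6.38-fold. Sept3, listed in the tables under a date and resolved by its position on chromosome 15, had 1.06 and 0.120 CPM in the controls.

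The 25 members placed in no role group were Gm996, Prr33, Fndc9, Arhgef4, Haao, Tmem181b-ps, Iffo1, A930013F10Rik, Magee1, Izumo4, Mgat3, Fam132a, Slc23a1, Acrbp, Wdr19, Micall2, Snx22, Mast3, Tmc4, Clca3a1, Lrrc45, 5730508B09Rik, Gm9199, Cdo1 and Gm16973. Gm996, of unnamed function, had 0.470 and 0.837 CPM in the Vehicle libraries and 3.78 and 3.28 CPM in the TAK-931 libraries. Prr33 had 1.53 and 2.51 CPM against 10.9 and 9.22 CPM, and its span overlaps that of Lsp1. Gm9199, the member with the treated tumours nearest each other, had 2.47 and 2.69 CPM against 5.46 and 5.46 CPM, with an interval of the ratio from 0.654 to 1.51. Mgat3, a glycosyltransferase, had 1.41 and 1.79 CPM against 4.29 and 4.25 CPM. Tmc4, a membrane channel-like protein, had 0.529 and 1.38 CPM against 3.01 and 3.09 CPM. At these levels a ratio near 1 is loosely determined.

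Per kilobase of exon, members spanned from 0.316 to 121 CPM per kilobase as TAK-931 means, with a median of 5.37. Cybb was the highest at 121, followed by Ptprcap at 113, Malat1 at 100.4 and Fn1 at 96.5 CPM per kilobase. Ptprcap, which associates with the phosphatase CD45, was named here after its values were seen; it had 24.9 and 24.4 CPM in the Vehicle libraries and 103 and 87.8 CPM in the TAK-931 libraries.

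The values ran on across the 2-fold limit and the ratio of 1.5, and were sparse around the ratio of 0.5. Just inside the 2-fold limit lay Fyn, Bcl9l and Gm16973, with ratios of the lower TAK-931 to the higher Vehicle value of 2.0003, 2.002 and 2.01, and just outside lay Bcl2l1, Clk4 and Gm14137 at 1.995, 1.994 and 1.987. Just inside the ratio of 1.5 between the treated tumours lay Gm12250, Serpina3f and Parp9 at 1.497, 1.485 and 1.481, and just outside lay Zc3h12c, Tagap and Il12b at 1.504, 1.507 and 1.529. Above the ratio of 0.5 the nearest members were Cxcr5, Tubb4a and Zfp382 at 0.564, 0.607 and 0.665, and below it lay Tnfsf9, Noxred1 and Pigz at 0.439, 0.430 and 0.379. When CPM were scaled by TMM, 79 genes met the rule, 73 of them among the 98.

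The 27 gene lists compiled for immune, stress and metabolic programmes and cell types held a larger share of the members than of all measured genes. The share was larger still among genes raised unequally. Of the 98 members 16 were on a list (16.3%), beside 189 of the 687 genes raised unequally (27.5%) and 5.46% of the 10846 genes. Over all 10846 genes, 100 (0.922%) met every condition of the rule with any name, and 687 were raised unequally. At that share, 0 members in a list is not read as a result. Of 83 measured antiviral interferon-stimulated effectors, 4 were members (Dtx3l, Gm12250, Parp9 and Trex1) and 40 were raised unequally. Of 42 interferon-gamma inducible genes, 4 were members (Cd40, Serpina3f, Socs1 and Socs3) and 18 were raised unequally. The interleukins, TNF family and their receptors gave 1 member, Il1b, and 27 genes raised unequally of 50. The nucleic acid sensors, adaptors and IRFs gave 0 members and 19 raised unequally of 43, and complement gave 0 and 13 of 19. By edgeR, none of these genes passed the adjusted p in either direction, as for the whole table.

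**Figure D4:**
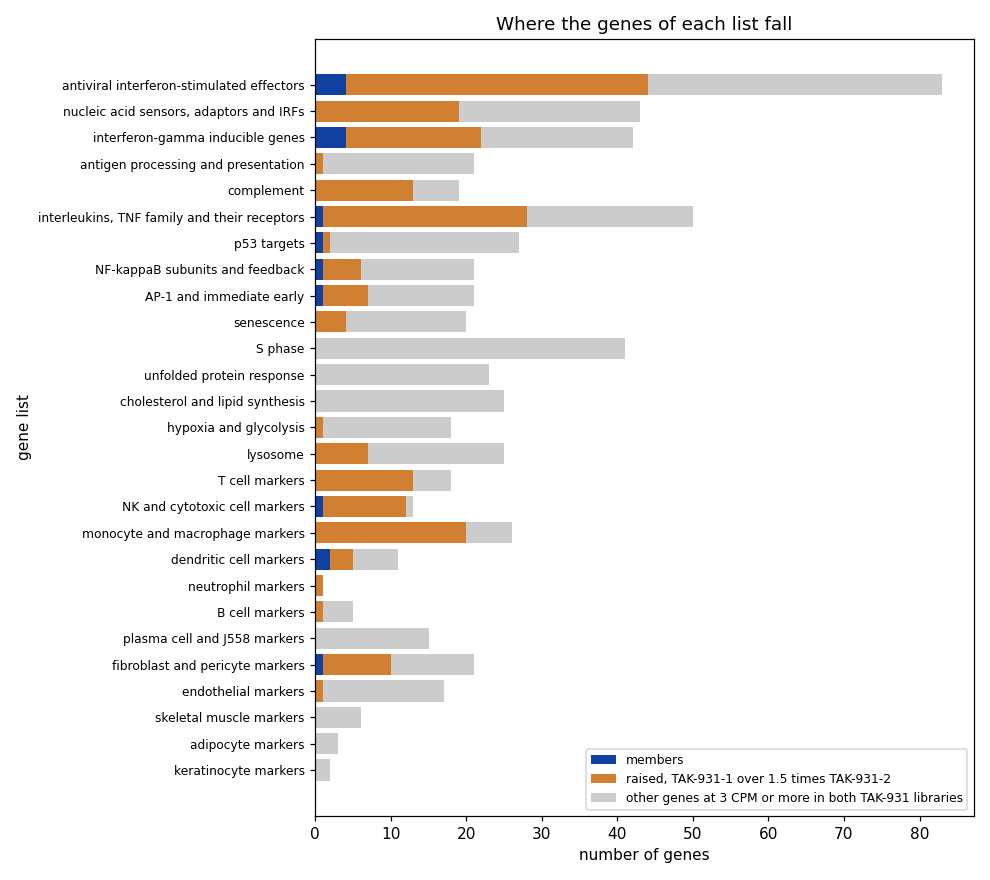
For each of 27 gene lists, the number of genes (x axis) that are members, that were raised with TAK-931-1 over 1.5 times TAK-931-2, or that were otherwise at 3 CPM or more in both TAK-931 libraries. At most 4 genes of a list are members, and the lists of T cell and of monocyte and macrophage markers hold 0. Over all 10846 genes 0.922% met the rule with any name, so a 0 is not read as a result.

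Cell markers differed between the tumours, and their levels stand here beside the members. Summed CPM of 27 T cell markers were 131 and 105 in the controls, and 2072 and 258 in TAK-931-1 and TAK-931-2. No marker of the 27 was at 0 in every library, 18 of the 27 reached 3 CPM in both treated tumours, and 0 were members. The 31 monocyte and macrophage markers in the table summed to 1282 and 1178 CPM in the controls and to 18823 and 3479 CPM in the treated tumours, with 0 members among 26 measured. Over all 10846 genes 0.922% met the rule with any name, so 0 members in these lists is not read as a result. The 21 fibroblast and pericyte markers summed to 2735, 3221, 19305 and 7711 CPM in the same order, with Fn1 as the member. These 3 lists were 17.5-, 15.3- and 6.48-fold the control mean for TAK-931-1, against 2.19-, 2.83- and 2.59-fold for TAK-931-2.

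Plasma cell and J558 markers went the other way in TAK-931-1. The 15 genes summed to 11558 and 12097 CPM in the controls and to 5463 and 16342 CPM in the treated tumours, and none was a member. The median fold of the members was 3.32 for TAK-931-1 and 2.87 for TAK-931-2. The part of cell content in the members' values was not tested.

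**Figure D5:**
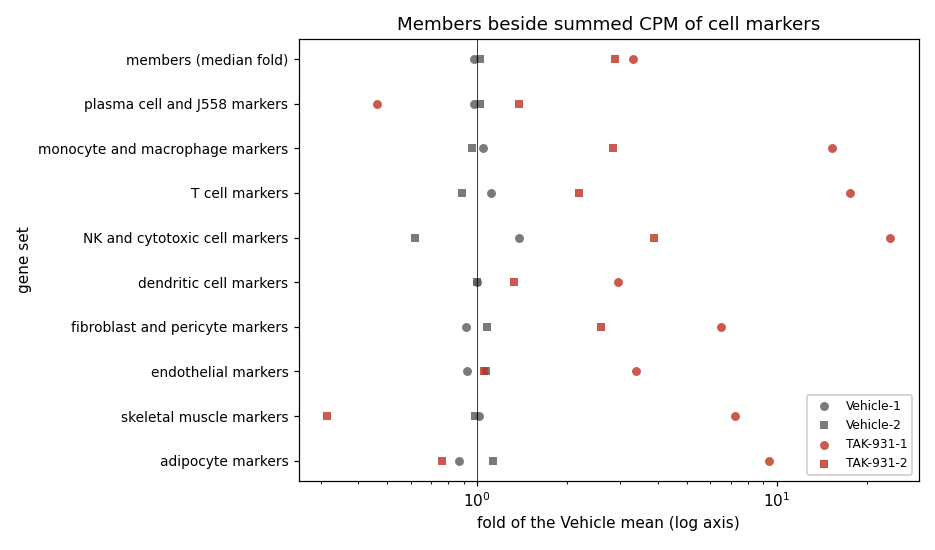
Fold of the Vehicle mean (log axis) in each library for the members, as the median over genes, and for the summed CPM of 9 marker lists. The TAK-931 points of the members, 3.32 and 2.87, lie close together by selection, while those of the T cell, monocyte and NK lists lie far apart.

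Position, length and base composition were not used by the rule. Members were spread over 20 chromosomes, and 10 of the 98 (10.2%) lay within 200 kb of another member, beside 635 of 10748 (5.91%) other genes at 3 CPM or more in both TAK-931 libraries that lay within 200 kb of a member. The neighbours were Dtx3l and Parp9, Lsp1 and Prr33, Bcl9l and Cxcr5, Acrbp and Iffo1, and Ccnl2 and Fam132a. The median exon length was 3065.5 bases for members, 3228 bases for genes raised unequally and 2959 bases for all 10846 genes. GC content, available for 95 members, had a median of 53.1%, beside 49.99% for genes raised unequally and 49.7% for all. RefSeq lists 91 members (92.9%) as protein coding, beside 98.2% of all genes with 3 CPM in both TAK-931 libraries. It lists 4 members as long non-coding RNA. The exons of 14 members overlap exons of another gene, and with the strand setting of the counting not given in the sources used here, their reads cannot be told apart.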

How the data were processed

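RNA was sequenced from 4 tumours, 2 Vehicle and 2 TAK-931. Per library, the authors deposited raw counts for each gene, not normalized, made with featureCounts from STAR 2.6.1c alignments to mm10, per the submitters' processing notes; another deposited column of another kind (unit "other") held exon length in bases. Library totals were 17008355, 16716624, 19589339 and 16487902. Small counts were mostly even (20.0% of counts from 1 to 20 were odd), so both mates appear to be counted and counting intervals are too narrow unless counts are halved. The strand setting is not given in the sources used here.

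CPM was the count over the library total. The whole table was fitted with edgeR 4.0.16 (R 4.3.3; filterByExpr with a minimum count of 10, TMM, robust quasi-likelihood test, treatment as the only term, two-sided, Benjamini-Hochberg at 0.05), with DESeq2 1.42.0 as an alternative; both the fit and the rule were tested on simulated data. Fold changes of members come from that fit, as a description. Log2 ratios of single libraries used a prior count of 2. With 2 against 2, an exact permutation test cannot go below 0.333. The p-values set each gene's group difference against a spread estimated from these tumours, partly shared over genes, and cover only these tumours.

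The members and the lists were chosen with earlier results of these data known. Named with values were the 10 members with the largest ratio of lower TAK-931 to higher Vehicle CPM, the 10 with the highest lower TAK-931 CPM, the 10 with the treated libraries nearest each other, up to 5 members of each list and those at the limits. Members with an ISRE were named with their sequence, and all other names were chosen after their values were seen. GC content came from the longest GENCODE vM21 transcript. Promoters came from RefSeq (GRCm38.p6), matched by symbol or synonym. Alternatives were other scalings, filters, limits, a replicate block and each library left out.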

Additional observations from a re-analysis of the deposited data

How the results depend on the processing

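The number of genes that met the rule was 98 and stayed within 1.5 times with TMM (79, of which 73 were members) or median-of-ratios scaling (92, of which 82), with no names left out (100), and, chosen after seeing the data, with halved counts (98, of which 96) or without genes whose exons overlap another (84). It was 160 at a minimum of 1 CPM, 51 at 10 CPM and 184 with the treated tumours allowed a ratio up to 2. It was 132 without Vehicle-1 and 154 without Vehicle-2. With 1 treated tumour the limit on their ratio could not be applied, and the number was 899 without TAK-931-1 and 3081 without TAK-931-2. The median log2 ratio of the members ran from 1.62 to 1.74 in TAK-931-1 and from 1.41 to 1.55 in TAK-931-2 when a Vehicle library was left out, with 1.41 without Vehicle-1.

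The count of 0 genes called by edgeR held for both other scalings, without a filter and with at least 10 counts in every library. It was 144 with a replicate block, although same-numbered libraries did not deviate together (correlation across genes 0.004), so they share only a number. DESeq2 called 1411. Leaving out libraries gave from 0 to 8424 calls: 0 without either Vehicle library, 3996 without TAK-931-1 and 8424 without TAK-931-2, where the lone treated tumour is assumed to vary like the Vehicle pair. The cause of the differences between tools was not tested.

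Under other scalings, the replicate block or a left-out library, the 40 members named by rule kept their direction in all 280 log2 fold changes. The 2-fold condition of the rule fixed that direction in advance, so nothing is read from it. Of these values, 13 moved by more than 1 SE. The lowest was 0.95, for Prkcd without TAK-931-1. The highest, 9.82 for Serpina3f without Vehicle-1, is against a library at 0 counts and depends on the prior count; without Vehicle-2 it was 2.09. The alternatives for the ISRE share are not read, since that share is void with 71 of 98 promoters matched. With 2 tumours a group and 43 of the 98 members under 3 CPM in the controls, depth limits single ratios.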

Other observations

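Splicing genes were looked at as a list after Ccnl1, Ccnl2 and Prpf39 were seen among the members. Of 19 genes for CLK kinases, cyclins L, SR proteins and partners, these 3 were members and 16 were not raised 2-fold in both tumours. Clk4, a kinase that phosphorylates SR proteins, lay just under the 2-fold limit with 42.1 and 47.9 CPM in the Vehicle libraries and 95.4 and 118 CPM in the TAK-931 libraries. Clk1 had 111 and 122 CPM against 199.7 and 176 CPM, above both controls in both treated tumours. Of 12 SR protein and Tra2 genes, 9 lay below both controls in both treated tumours, as did 34.6% of all 10846 genes with 3 CPM in both TAK-931 libraries; Srsf4, Srsf11 and Tra2a overlapped them. Srsf3 had 520.2 and 536 CPM against 161 and 253 CPM, Srsf7 had 291 and 318 CPM against 134 and 178 CPM, and Srsf6 had 434 and 453 CPM against 225 and 321 CPM. Clk1, Clk2, Clk3 and Clk4 lay above both controls in both TAK-931-treated allografts by CPM, as did 30.7% of all 10846 genes. With TMM scaling Clk2 overlapped the controls. Ccnl1 and Ccnl2 lay above both controls by the rule that made them members, so they are not counted here. Clk2 had 13.2 and 14.6 CPM against 16.03 and 15.2 CPM, and Clk3 had 99.4 and 88.2 CPM against 112 and 129 CPM. The list was chosen on these libraries, and the difference was not tested.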
